A study of Rattus norvegicus with 8 samples.

Results

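Crem and 5 genes that work with it, Creb1, Atf1, Crebbp, Crtc1 and Crtc2, were followed in rat PC12 cells with and without forskolin. PC12 is a line grown from a pheochromocytoma, a tumour of adrenal medulla cells, and forskolin, from a plant, raises cyclic AMP by switching on adenylyl cyclase. All probe sets whose annotation carries only 1 of these 6 symbols were taken, 17 of the 31142 on the pair of chips used (chip A has 10 of 15866, chip B 7 of 15276). Crem has 6 of them, Crebbp 5, Creb1 4, and Atf1 and Crtc2 1 each. No probe set carries the symbol Crtc1, which was not analysed here.

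The groups are PC12 cells with forskolin and PC12 cells without it, each measured as total RNA on 2 arrays of chip A and 2 arrays of chip B. The series title calls the reference an inactive control, and the array labels give no more than the absence of forskolin; neither dose nor exposure time is stated in the sources used here. The labels do not say whether the 2 arrays of a group came from separate cultures, so the p-values measure only the spread between these arrays, which may be technical. Values are the authors' log2 levels, and the chips were tested separately. The medians of the 4 arrays lay within 0.021 of each other on chip A and within 0.025 on chip B. Of 14 chromaffin marker genes, 11 were bright enough to test: Th, Ddc, Chga, Chgb, Scg2, Slc18a2, Phox2a, Gata3, Syp, Snap25 and Prph. Their differences between forskolin and no forskolin ran from -0.12 (Gata3) to 0.41 (Phox2a), with a median of 0.03 (log2). Phox2a, a transcription factor of these cells, was the 1 of the 11 called (0.41 higher with forskolin on the log2 scale, limma adjusted p = 0.000102), and at an unadjusted p under 0.05 there were 4 higher and 1 lower. Of the 6 fibroblast, 6 glial, 5 adrenal cortex and 6 blood and endothelium markers, 3, 3, 2 and 2 were bright enough, and none of these 10 was called by limma (1 higher and none lower at an unadjusted p under 0.05). In bulk RNA, fewer cells of a type and less RNA per cell cannot be told apart.

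CREB, encoded by Creb1, and its close relatives ATF1 and CREM are leucine zipper proteins that bind the cyclic AMP response element (CRE) in DNA. Protein kinase A, when cyclic AMP frees it, phosphorylates a serine in their kinase-inducible domain, which then recruits the acetyltransferase CBP, encoded by Crebbp. The CRTC coactivators are held in the cytoplasm by salt-inducible kinases until they are dephosphorylated, and then bind the leucine zipper. Crem also has an internal, cyclic AMP-responsive promoter whose short product, ICER, keeps the DNA-binding part but lacks the kinase-inducible domain and represses CRE-driven genes, the Crem promoter among them.

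RefSeq promoter windows (build GRCr8, 250 bases before to 50 after an annotated start) were found for 5 of the 6 genes, Atf1 being the one without, and comprised 8 windows. The full CRE, TGACGTCA, reads the same on both strands. Its 5-base core, TGACG or on the opposite strand CGTCA, was searched too, and a full CRE holds both readings, overlapping. The Crem windows are shown because they differ in these motifs, and the Creb1 window for comparison. Cores and full elements are in capitals and all 4 windows lie on the plus strand.
Crem window 1, chr17:58933816-58934115: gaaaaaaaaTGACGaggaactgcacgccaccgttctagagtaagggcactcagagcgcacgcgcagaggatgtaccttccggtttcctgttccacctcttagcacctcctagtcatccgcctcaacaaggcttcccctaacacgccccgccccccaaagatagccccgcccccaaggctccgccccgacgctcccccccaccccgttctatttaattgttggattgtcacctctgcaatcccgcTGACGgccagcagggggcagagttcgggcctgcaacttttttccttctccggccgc
Crem window 2, chr17:58984547-58984846: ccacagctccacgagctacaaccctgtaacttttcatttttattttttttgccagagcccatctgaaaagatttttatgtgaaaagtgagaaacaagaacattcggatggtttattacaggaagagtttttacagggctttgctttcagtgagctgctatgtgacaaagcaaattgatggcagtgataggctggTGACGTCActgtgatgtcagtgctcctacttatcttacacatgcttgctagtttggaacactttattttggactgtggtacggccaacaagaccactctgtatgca
Crem window 3, chr17:58985240-58985539: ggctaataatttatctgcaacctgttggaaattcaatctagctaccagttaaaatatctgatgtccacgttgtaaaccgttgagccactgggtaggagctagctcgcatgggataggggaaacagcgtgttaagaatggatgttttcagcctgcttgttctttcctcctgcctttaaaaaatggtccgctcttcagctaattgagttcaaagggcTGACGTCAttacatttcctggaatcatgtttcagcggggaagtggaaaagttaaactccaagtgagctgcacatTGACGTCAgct
Creb1 window 1, chr9:73397259-73397558: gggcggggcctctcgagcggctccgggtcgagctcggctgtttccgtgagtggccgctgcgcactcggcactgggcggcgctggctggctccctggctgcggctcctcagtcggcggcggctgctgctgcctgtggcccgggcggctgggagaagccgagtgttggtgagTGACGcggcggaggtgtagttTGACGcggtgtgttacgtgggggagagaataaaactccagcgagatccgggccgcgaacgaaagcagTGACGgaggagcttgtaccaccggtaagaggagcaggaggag

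Crem window 2 holds 1 full CRE, which begins 56 bases before the start, and Crem window 3 holds 2, which begin 35 bases before the start and 39 bases after it. These windows begin 693 bases apart and lie 50731 and 51424 bases downstream of Crem window 1, which has 2 cores and no full CRE. Creb1 window 1 has 3 cores and Crtc2's only window 1, and neither has a full CRE. The second Creb1 window and the windows of Crebbp and Crtc1 hold none of these motifs. Of 33469 RefSeq rat windows of 300 bases, 1.83% hold a full CRE, 0.0418% (14 windows) hold 2 or more, and 21.2% hold at least 1 core. With both readings of a full CRE counted, 4.96% hold 2 or more cores and 0.236% hold 4 or more. Such a match describes the letters of a window and is not a measured binding site.

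**Figure D1:**
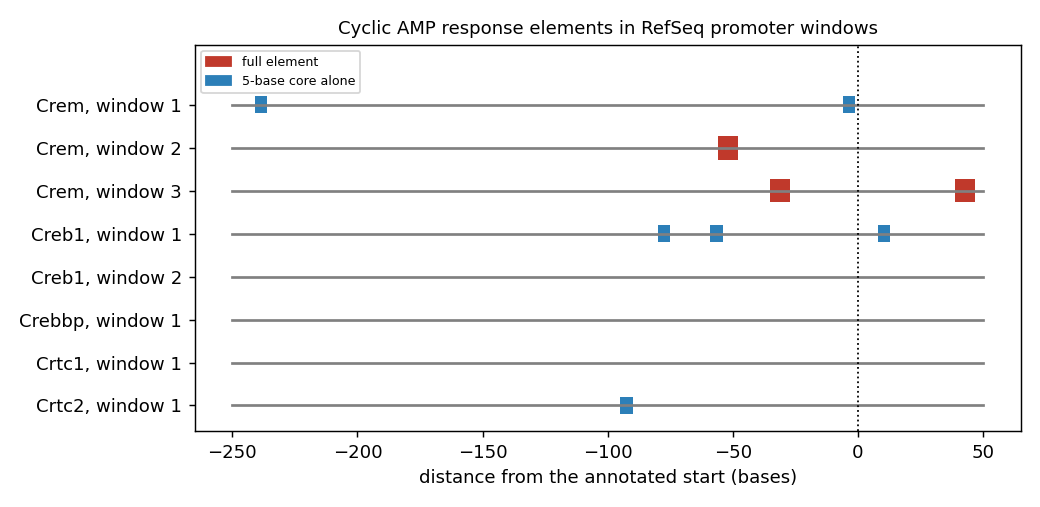
Motif positions in the 8 RefSeq promoter windows of the genes, as distance from the annotated start in bases (negative is upstream). Wide red bars are full CREs and narrow blue bars are 5-base cores outside a full CRE. The 3 full CREs lie in the second and the third Crem window.

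The comparison asks how the abundance of Crem and of its partners' transcripts differs between cells with and without forskolin. Crem was higher with forskolin on all 6 of its probe sets, by 0.24 to 2.49 on the log2 scale, with a median of 1.84. The 11 probe sets of Creb1, Atf1, Crebbp and Crtc2 measured between -0.10 and 0.15, with a median of 0.04, and none of them was called. A call is an adjusted p under 0.05 from limma with Benjamini-Hochberg adjustment over all tested probe sets of a chip. Probe sets with a mean linear level under the 30th percentile of their chip (a log2 level of 7.02 for chip A and of 6.02 for chip B) were left out of the test. Of the 17 probe sets, 9 passed, 3 of them Crem, 2 Crebbp on chip B, and 1 each of Creb1, Atf1, Crebbp and Crtc2 on chip A. The other 8 are given from a fit without this filter.

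The largest Crem change was on 1378925_at of chip B. It measured 10.38 and 10.54 (log2) on the forskolin arrays, against 8.03 and 7.91 on the arrays without forskolin. The lowest forskolin array lay 2.36 above the highest array without it, so the groups did not overlap. The rise was 2.49 ± 0.09 (log2, SE, n = 2 per group; 95% interval 2.27 to 2.71), or 5.62-fold, with an adjusted p of 0.000193 from limma. Among the 10693 tested probe sets of chip B it was the second largest rise. This probe set was above the filter level in both groups.

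The next largest rise on chip B was also in Crem. Probe set 1393550_at measured 7.91 and 8.30 with forskolin, against 6.25 and 5.67 without it. Both forskolin arrays lay above both others by at least 1.66, although the arrays within a group differed more than for 1378925_at. The rise was 2.15 ± 0.20 (log2, SE, n = 2 per group; limma adjusted p = 0.0149), or 4.43-fold, with a 95% interval from 3.20-fold to 6.13-fold. Its mean without forskolin, 5.96, was below the filter level of chip B, and it passed through its forskolin arrays. How far such a level lies above background is not known, so the size of the rise is uncertain. With no filter it was also called (limma adjusted p = 0.0142), and with 50 added to every linear value before the logarithm, an alternative chosen after seeing the data that damps changes at dim levels, the rise was 1.53.

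Probe set 1396545_at, the third of Crem on chip B, was below the filter. It measured 6.41 and 6.45 with forskolin, against 5.07 and 4.67 without it, again with no overlap. In the fit with no filter it rose by 1.56 ± 0.13 (log2, SE, n = 2 per group; limma adjusted p = 0.0122), or 2.96-fold. With 50 added the rise was 0.78, still called. Limma called 0.15% of the tested probe sets of chip B higher, 16 in all, and 0.111% with no filter. Among those 16 were 1378925_at, above the filter level in both groups, and 1393550_at, which was tested only through its forskolin arrays. The number of higher calls was 8 without forskolin replicate 2, 34 without no forskolin replicate 1 and 47 without no forskolin replicate 2, and these 2 Crem probe sets were called each time. In a fit without an array the lone array left in its group is assumed to vary like the other group.

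On chip A the Crem probe set that passed the filter was 1369738_s_at. In this naming, _s_at marks a set whose probes match more than one transcript sequence. It measured 9.00 and 9.10 with forskolin, against 8.23 and 8.12 without it. The groups lay 0.78 apart at their nearest arrays, and its rise of 0.88 ± 0.05 (log2, SE, n = 2 per group; limma adjusted p = 2.87e-05), or 1.84-fold, ranked 50 among the 11106 tested probe sets. Limma called 2.03% of those higher.

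The dim probe set 1369737_at of the same chip gave a larger change, whose size depends on how dim values are treated. It measured 6.73 and 6.62 with forskolin, against 4.63 and 4.49 without it. All 4 arrays lay below the filter level of the chip, and the groups were 1.98 apart at their nearest arrays. With no filter it rose by 2.11 ± 0.06 (log2, SE, n = 2 per group, limma adjusted p = 1.28e-06), or 4.32-fold. By size of rise it ranked 8 among the 15866 probe sets, of which 1.37% were called higher. With 50 added the rise was 1.05 (log2), still called, and that of 1369738_s_at was 0.78.

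The remaining Crem probe set, 1387714_at on chip A, was dim in both groups. It measured 5.51 and 5.60 with forskolin, against 5.29 and 5.35 without it. Its arrays also did not overlap, but the difference of 0.24 (log2, 95% interval 0.12 to 0.36) was not called with no filter (limma adjusted p = 0.0735). Groups did not overlap, with forskolin higher, on 22.7% of all probe sets of chip A and 10.7% of those of chip B, so the lack of overlap alone sets none of the Crem probe sets apart.

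**Figure D2:**
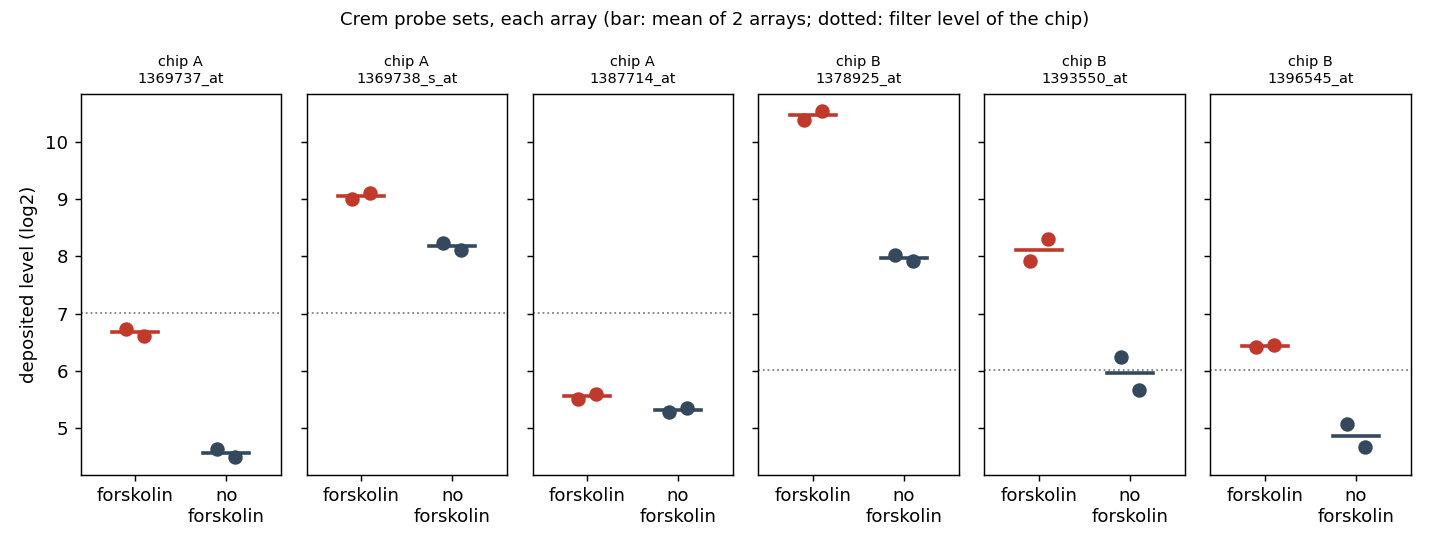
Deposited level (log2) of the 6 Crem probe sets on each array, forskolin at the left and no forskolin at the right of each panel. Points are arrays, bars the mean of 2 arrays, and dotted lines the filter level of the chip; levels of different probe sets are not on 1 scale. Forskolin arrays are higher in every panel, by 2.49 on 1378925_at and by 0.24 on 1387714_at.

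The Crem probe sets were then compared with each other by fitting limma to the difference between probe sets of the same gene on each array, over all such pairs of a chip. On chip A, with no filter, all 3 Crem pairs were called, where 0.94% of 3085 pairs were (29 pairs). The change on 1369737_at exceeded that on 1369738_s_at by 1.23 ± 0.07 (log2, SE; 95% interval 1.07 to 1.39; limma adjusted p = 1.99e-07). It exceeded that on 1387714_at by 1.87 ± 0.08 (limma adjusted p = 4.96e-09). Between 1369738_s_at and 1387714_at the changes differed by 0.64 ± 0.07 (limma adjusted p = 0.000127). Pairs of 1 gene share probe sets and are not independent.

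The per-array values behind the first pair show how far it stands from the spread. The level of 1369737_at minus that of 1369738_s_at was -2.27 and -2.48 on the forskolin arrays, against -3.60 and -3.63 on the arrays without forskolin. The groups do not overlap, and with 2 arrays against 2 the exact permutation test (two-sided) gave p = 0.333, the smallest it can give. With 50 added, the difference for this pair was 0.27 and no longer called (limma adjusted p = 0.158). The other pairs stayed called with 50 added, 1369737_at against 1387714_at at 0.94 and 1369738_s_at against 1387714_at at 0.67. In the last pair the dimmer probe set had the smaller change, and adding 50 damps it more by construction. That call with 50 added is therefore no separate evidence that the changes differ.

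On chip B the changes of the 3 Crem probe sets ran from 1.56 to 2.49. Both tested ones, 1378925_at and 1393550_at, differed by 0.35 ± 0.15 (log2, SE; 95% interval 0.02 to 0.67), which was not called over 1609 pairs (limma adjusted p = 0.995), of which 0.124% were. It was called without no forskolin replicate 2 (0.58, limma adjusted p = 0.0428) and with 50 added (0.75, 0.00333). With no filter, 0.121% of 2487 pairs were called. One of these was 1378925_at against 1396545_at, with changes 0.93 ± 0.14 apart (limma adjusted p = 0.00181), a call lost without forskolin replicate 2 (0.109); with 50 added this pair was 1.499 apart and called. The change on 1393550_at exceeded that on 1396545_at by 0.58 ± 0.14 and was not called (limma adjusted p = 0.291), although it was without no forskolin replicate 1 (0.67, 0.00503), with the replicate number as a block (0.58, 0.046) and with 50 added (0.75, 0.0278). Adding 50 damps the dimmer probe set of a pair more by construction, which widens the gaps on this chip. The rises became 2.28 for 1378925_at, 1.53 for 1393550_at and 0.78 for 1396545_at. These pair calls with 50 added are therefore no separate evidence that the changes differ. Probe sequences were not used here, so which Crem transcripts each probe set reads is not known.

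Creb1, which encodes the CRE-binding activator itself, was not called on any of its 4 probe sets. The tested one, 1375655_at on chip A, measured 8.06 and 8.13 with forskolin, against 8.09 and 8.13 without it. These arrays overlap, and the difference was -0.01 (log2, 95% interval -0.12 to 0.09; limma adjusted p = 0.932). The other 3 were below the filter and measured 0.04 (1369708_a_at) and 0.07 (1371291_at) on chip A and -0.10 (1377913_at) on chip B. No pair of Creb1 probe sets on chip A differed in change by a called amount, the widest difference being 0.09 with a 95% interval of -0.05 to 0.23.

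Atf1, which encodes a close relative of CREB, measured 9.79 and 9.82 with forskolin on 1389623_at, against 9.83 and 9.87 without it. The difference of -0.04 (log2, 95% interval -0.13 to 0.05) was not called (limma adjusted p = 0.633).

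The coactivators likewise gave no call. Crebbp, which encodes CBP, measured 9.53 and 9.53 with forskolin on 1399104_at of chip A, against 9.46 and 9.51 without it, a difference of 0.05 (log2; limma adjusted p = 0.558). Its brightest probe set on chip B, 1382264_at, measured 9.38 and 9.36 with forskolin, against 9.13 and 9.34 without it. That difference was 0.14 (log2, 95% interval -0.09 to 0.36; limma adjusted p = 0.978), and most of it came from no forskolin replicate 1: it was 0.03 without that array. The remaining Crebbp probe sets measured -0.09 (1380027_at), 0.07 (1385852_at) and 0.15 (1387619_at). The last of these, a dim probe set of chip A with 6.74 and 6.70 with forskolin, against 6.52 and 6.63 without it, was the only one of the 11 with an unadjusted p under 0.05 (limma adjusted p = 0.264). Crtc2, which encodes a CREB coactivator, measured 9.17 and 9.15 on 1373828_at with forskolin, against 9.20 and 9.28 without it. That difference of -0.08 (log2, 95% interval -0.18 to 0.02) was not called (limma adjusted p = 0.405).

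**Figure D3:**
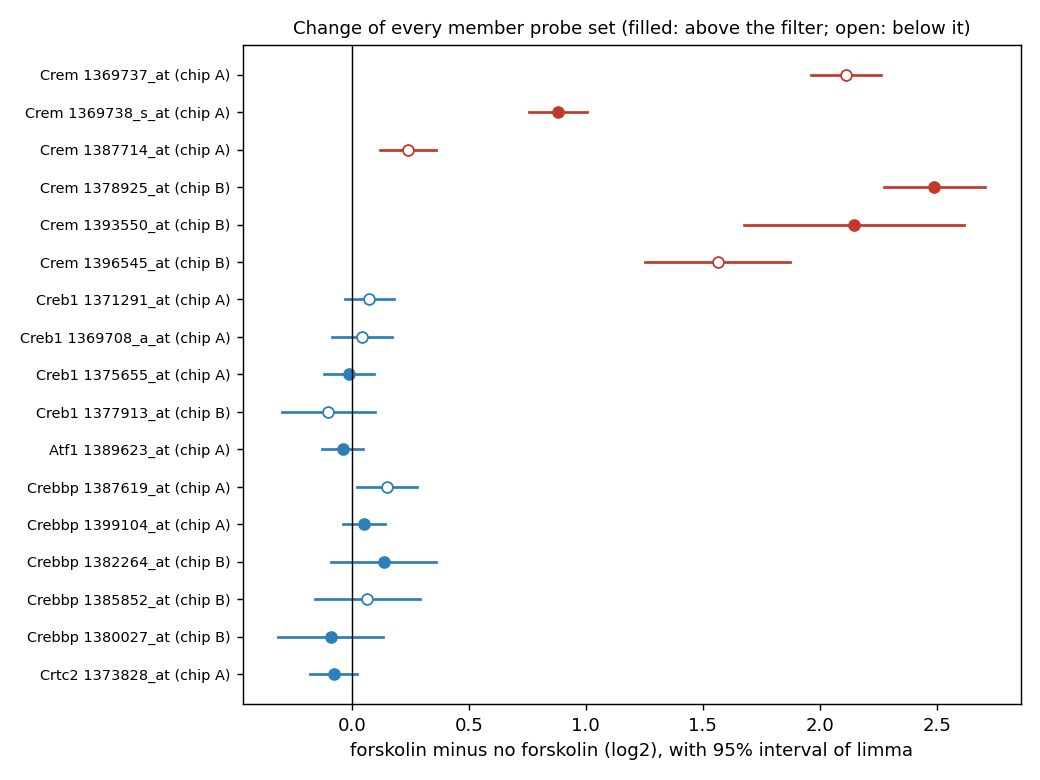
Difference between forskolin and no forskolin (log2) for the 17 probe sets, with the 95% interval of limma; filled points passed the filter and open points come from the fit without it. Crem probe sets are red and those of Creb1, Atf1, Crebbp and Crtc2 blue. The blue points lie between -0.10 and 0.15 and the red ones between 0.24 and 2.49.

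Set side by side, the 95% intervals of the 5 called Crem probe sets began at 0.76 or above (log2), while those of the 11 probe sets of the other 4 genes reached at most 0.36, or 1.28-fold. The interval of the sixth Crem probe set, 1387714_at, ran from 0.12 to 0.36 and overlapped some of those of the 11, but not all. In the other direction those of the 11 reached -0.32, or 0.80-fold. Intervals on chip B were wider, with a median SE of 0.089 against 0.045 on chip A, so smaller shifts of Creb1 and Crebbp could not be detected there. The median change over all tested probe sets was -0.01 on chip A and -0.03 on chip B, with 5th and 95th percentiles of -0.13 and 0.13 on chip A and -0.20 and 0.14 on chip B. All tested probe sets of Creb1, Atf1, Crebbp and Crtc2 lay within these ranges.

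**Figure D4:**
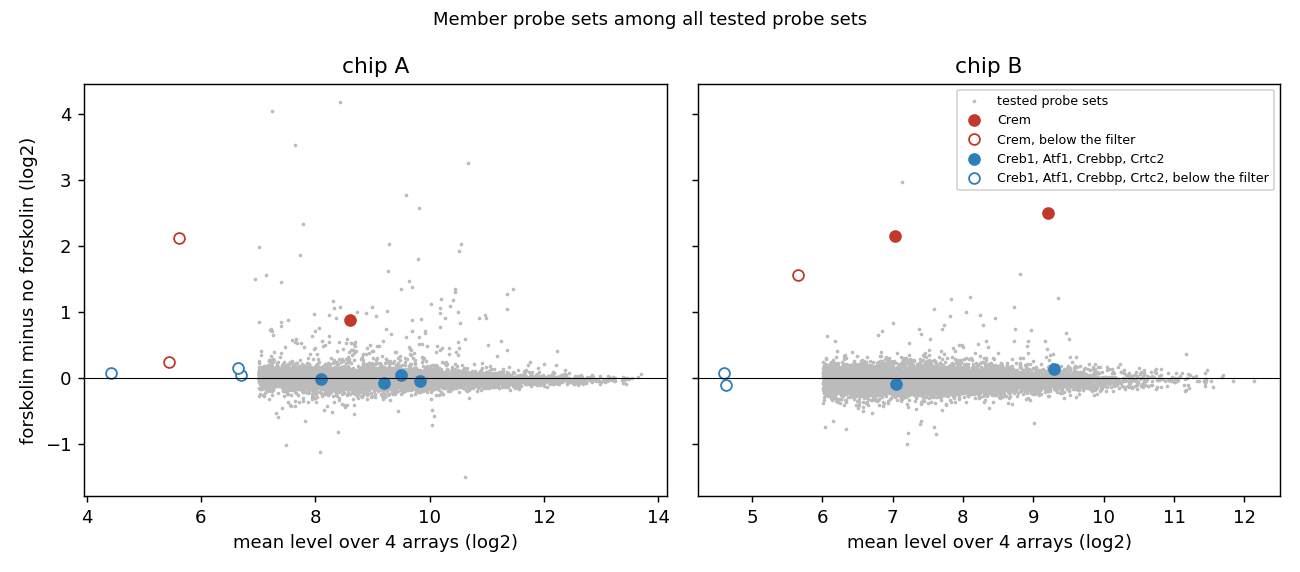
Mean level over 4 arrays (log2) against the difference between forskolin and no forskolin (log2) for all tested probe sets of each chip (grey). Crem is red and Creb1, Atf1, Crebbp and Crtc2 are blue, with open points for probe sets below the filter. Both tested Crem probe sets of chip B lie near the top of that chip, at 2.49 and 2.15, and the filled blue points lie within the grey band.

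For the 3 Crem probe sets called among those that passed the filter, the genes most like each were found by the Euclidean distance between log2 profiles over the 4 arrays of the chip, each centred on its own mean. For 1369738_s_at on chip A they were Azin1 (distance 0.080), Fosl1 (0.084), Arc (0.091), Pvr (0.105) and Dusp5 (0.127), with differences between 0.87 and 1.00. Azin1 encodes an inhibitor of antizyme, Fosl1 an AP-1 subunit, Arc a protein of active synapses, Pvr a cell adhesion receptor, and Dusp5 a MAP kinase phosphatase. For 1378925_at on chip B the nearest was Atoh7, a basic helix-loop-helix factor, which measured 8.62 with forskolin and 5.65 without it, a difference of 2.96, at a distance of 0.577. Its mean without forskolin was below the filter level of the chip, so it was tested through its forskolin arrays and the size of its rise is uncertain. The next 4, Mab21l1, Pde4d, Nr4a3 and Zrsr2-ps1, were over 1.3 away, with differences between 1.00 and 1.21. The same 5 genes were nearest to 1393550_at, with Atoh7 at 1.07. With 4 arrays, this likeness describes mainly the size of the change.

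The wider pathway was counted by lists of genes, beside the share of all tested probe sets that limma called: 2.03% higher and 1.26% lower on chip A, and 0.15% higher and 0.00935% lower on chip B. No test set a list against these shares, and single calls in lists of these sizes are a description only. Among 14 tested CREB and ATF relatives, 1 rose and none fell by limma, with a median near 0 and the same counts at p under 0.05 before adjustment (1 higher and 0 lower). The gene was Atf4, a factor of the amino acid stress response, with 10.99 and 11.06 with forskolin, against 10.78 and 10.82 without it (0.22 ± 0.04, log2, SE, n = 2 per group; limma adjusted p = 0.0164). That call was lost without forskolin replicate 2. Among 10 other coactivators 1 rose and none fell, with a median of 0.06 (log2) and the same counts at p under 0.05 before adjustment. Cited2, which binds CBP and p300, measured 10.33 and 10.26 with forskolin, against 9.39 and 9.42 without it, a 1.86-fold rise (limma adjusted p = 3.57e-06). The CBP paralogue Ep300 measured 0.09 and the third CRTC gene, Crtc3, 0.06, without a call.

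Of 31 kinases, phosphatases and brakes of CREB and CRTC, 1 rose and 1 fell, with a median of -0.01 (1 higher and 3 lower at p under 0.05 before adjustment). The rise was in Sik1, which encodes a member of the salt-inducible kinases that hold CRTCs in the cytoplasm, by 2.57 ± 0.05 (log2, SE). Its values were 11.11 and 11.08 with forskolin, against 8.58 and 8.47 without it. Camkk1, which activates calmodulin-dependent kinases, fell 1.20-fold, with 8.40 and 8.43 with forskolin, against 8.70 and 8.66 without it (limma adjusted p = 0.012). Without forskolin replicate 1, and with the replicate number as a block, no gene of this list was called lower. The relatives Sik2 (0.02) and Sik3 (-0.10), the protein kinase A subunit gene Prkaca (0.04) and the calcineurin gene Ppp3ca (0.00), chosen after their values were seen, were not called.

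Of 40 textbook target genes of CREB, 33 were bright enough to test, of which 17 rose and none fell. The median of the 33 was 0.41 (log2), against -0.01 over all tested probe sets of chip A. Before adjustment, 21 were higher and 0 lower at p under 0.05. The list, which does not hold Crem, was drawn up with results of these data known, so its count is no independent evidence. Of the 17, Fos, Nr4a2, Nr4a3, Rgs2 and Pde4b, 5 in all, had means without forskolin below the filter level and passed through their forskolin arrays, while 12 lay above it in both groups. The median of 0.41 includes these 5 genes, all with rises above it, and would be lower without them. With the filter at the 50th percentile 13 were called. The 8 with the smallest p were Dusp1, Sik1, Fos, Junb, Nr4a1, Nr4a3, Ddit4 and Id1, with rises from 1.04 in Id1, which holds back basic helix-loop-helix proteins, to 4.03 in Fos, an AP-1 subunit. For Fos, at 5.22 without forskolin, and Nr4a3, at 5.88, the base is dim and the size of the rise uncertain.

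**Figure D5:**
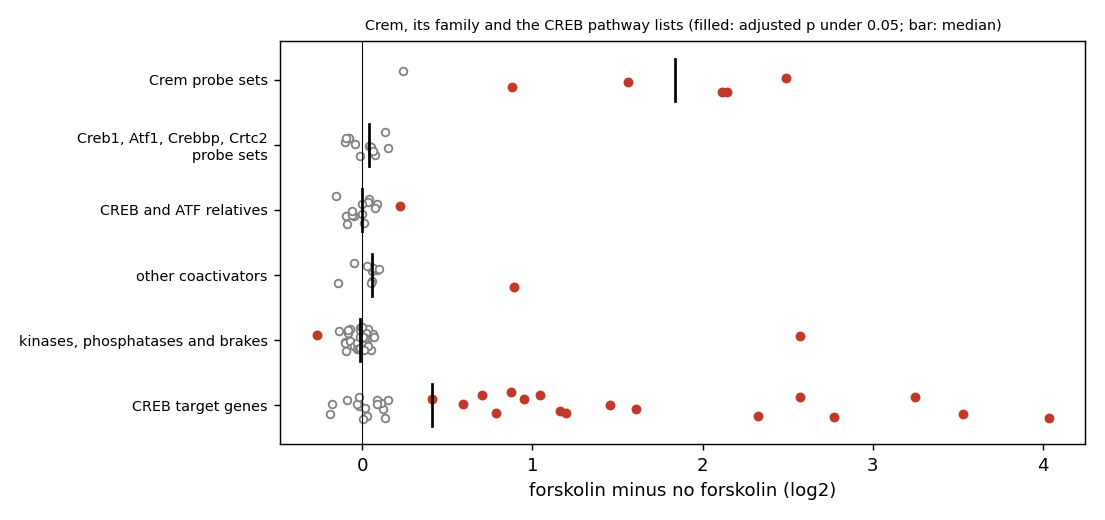
Difference between forskolin and no forskolin (log2) for the 6 Crem probe sets, the 11 probe sets of Creb1, Atf1, Crebbp and Crtc2, and the tested genes of 4 pathway lists, 1 probe set per gene. Filled points have an adjusted p under 0.05, and bars are medians. Medians are 1.84 for Crem, 0.04 for the other 4 genes and 0.41 for the CREB targets. The medians of Crem and of the other 4 genes include probe sets below the filter, so they are not like for like with the lists. That of the CREB targets is raised by 5 genes that passed the filter only through their forskolin arrays.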

How the data were processed

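The tables hold log2 levels as deposited by the authors, with a value for each probe set on each array; the log base was inferred from the range of values, and the background correction, probe summary and scaling behind them are not stated in the sources used here. Array medians differed by under 0.1, and the authors' scaling was kept. Gene names came from GEO's annotation of the chips, updated by Entrez number to RefSeq (GRCr8; 12748 probe sets of chip A and 7524 of chip B matched). Of chip A's probe sets 12783 carried 1 symbol, 312 several and 2771 none; on chip B these were 7564, 100 and 7612. Probe sets with a mean linear value under the 30th percentile were left out. Forskolin was compared with no forskolin with limma 3.58.1 in R 4.3.3 (lmFit, eBayes with an intensity trend, two-sided, Benjamini-Hochberg), and pairs of probe sets of 1 gene by the same fit, without the trend, to their per-array differences. Both tests were tried on simulated data with independent noise, for probe sets that passed the filter only. The fit with no filter, from which the called Crem pairs come, was not simulated. The number of arrays limits the precision. All 17 probe sets are named; list genes are named when called, up to 8 a list by smallest p, and likeness takes the 5 nearest genes. A list gene entered through its brightest tested probe set, from chip A first. The genes and lists were chosen with earlier results of these data known. Alternatives were quantile normalization, median centring, no filter, a filter at the 50th percentile, no trend, each array left out, the replicate block and, added later, 50 added to linear values.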

Additional observations from a re-analysis of the deposited data

How the results depend on the processing

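All 5 called Crem probe sets kept their direction and call under every alternative run on them, with each array left out, the replicate block and 50 added included, but with 50 added the rise was 1.05 against 2.11 for 1369737_at and 0.78 against 1.56 for 1396545_at; 1387714_at was called with median centring (0.24, limma adjusted p = 0.0382). No probe set of Creb1, Atf1, Crebbp or Crtc2 was called under any alternative, and differences near 0 changed sign when 1 array was left out: Creb1 1369708_a_at (-0.014 to 0.097) and 1375655_at (-0.046 to 0.023), Crebbp 1380027_at (-0.199 to 0.016) and 1385852_at (-0.043 to 0.175). Leaving out each array in turn, the difference in change on chip B ranged from 0.11 to 0.58 for 1378925_at minus 1393550_at, from 0.79 to 1.07 for 1378925_at minus 1396545_at, and from 0.41 to 0.76 for 1393550_at minus 1396545_at. With 50 added these were 0.75 (now called), 1.499 and 0.75 (now called). On chip A they were 0.27 (no longer called) for 1369737_at minus 1369738_s_at and 0.94 against 1.87 for 1369737_at minus 1387714_at. For 1369738_s_at minus 1387714_at on chip A it was 0.67 against 0.64. Adding 50 damps dim levels more by construction. In that pair, and in each pair on chip B, the dimmer probe set had the smaller change. The wider gaps in these pairs are therefore no separate evidence that the changes differ. Why the Crem probe sets differ was not tested. The labels do not say whether same-numbered arrays share more than the number. Their deviations correlated at 0.003 on chip A and 0.20 on chip B. With the replicate block, 46 probe sets were lower on chip A against 140, 2 against 1 on chip B, the pair 1393550_at minus 1396545_at was called (0.58, limma adjusted p = 0.046), and 0 kinases, phosphatases and brakes were lower. Counts called lower on chip A were 277 with median centring and 79 to 198 with an array left out. On chip B, 27 were higher and 3 lower under quantile normalization, 0 were lower with 50 added, and with an array left out 8 to 47 were higher and 0 to 50 lower. Among the lists, kinases, phosphatases and brakes had 2 lower with median centring and 0 to 1 lower with an array left out, and CREB and ATF relatives 0 to 1 higher. No detection calls were used here, so how far dim Crem levels lie above background is not known.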
